A study of Mus musculus with 16 samples.

Results

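The genes described here encode 10 inhibitors of Wnt signalling that act outside the Dkk and Sfrp families of secreted antagonists: Apcdd1, Znrf3, Rnf43, Notum, Kremen1, Kremen2, Nkd1, Nkd2, Axin2 and Sostdc1. They were taken by name from 25755 annotated mouse genes with curated transcripts. No rule on their measured values was used, but earlier results of these data were known. For each of them, the peaks of all 6 deposited lists were read within 2500 bp of the transcription start sites and over the gene body. H3K4me3, H3K27me3 and the Polycomb protein Suz12 had been mapped by ChIP-sequencing in embryonic stem cells (ESCs) kept in self-renewal in either of a pair of ways. LIF-ESCs were grown with leukaemia inhibitory factor at 100 units per ml and without 4-hydroxytamoxifen (OHT). Myc-ESCs were grown with 50 nM OHT and without LIF. Both were cultures of R1 mouse ESCs that carried MycER, a Myc protein (MycT58A) fused to the hormone-binding part of the estrogen receptor, so that the LIF-ESCs also held the silent fusion protein. The study's methods name clone D1 as its MycT58AER line and A2 as an independent clone, but their account of ChIP-sequencing names neither, so the lists may rest on a single clone. Of 16 libraries, 4 were inputs, and 2 stood behind each culture and antibody. Each culture and antibody gave 1 list, so replicate error could not be estimated, no difference was tested, and read depth was unknown.

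Wnt ligands bind Frizzled receptors and the co-receptors Lrp5 and Lrp6, which stops the destruction of beta-catenin and lets it act with Tcf factors on target genes. The inhibitors cut this chain at different levels. Notum, a secreted enzyme, removes the lipid that Wnt ligands need. Apcdd1, a membrane glycoprotein, and Sostdc1, a secreted protein, bind at the level of ligand and co-receptor. Kremen1 and Kremen2 are membrane receptors for Dkk proteins. Znrf3 and Rnf43, a pair of transmembrane ubiquitin ligases, clear Frizzled from the cell surface. Inside the cell, Nkd1 and Nkd2 bind Dishevelled, and Axin2 is a scaffold of the complex that destroys beta-catenin. Several of them, Axin2 above all, are themselves transcribed in response to the pathway and so close a feedback loop. H3K4me3 marks the start sites of active and poised genes. Suz12 is a subunit of Polycomb repressive complex 2, which writes H3K27me3, and start sites that carry both histone marks are called bivalent. A peak in a bulk culture cannot tell a region marked in every cell from one marked in a part of the cells.

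DNA is shown for Axin2, Nkd2, Rnf43 and Kremen2, at which a Polycomb list differed between the cultures and for which the RefSeq table used here holds the promoter of the start site near the peaks (GRCm38, 5′ to 3′ on the strand of the gene, with CpG dinucleotides in capitals). Apcdd1 also differed between the cultures in a Polycomb list, but its sequence is not shown. The first 4 sequences run from 250 bases before the start site to 50 after it, as RefSeq lists them. They set the CpG-rich Axin2 and Nkd2 promoters, with 31 and 26 CpG in 300 bases, beside those of Rnf43, with 10, and Kremen2, with 17. The Axin2 promoter lies at chr11:108920099-108920398 on the plus strand, the Nkd2 promoter at chr13:73847582-73847881 on the minus strand, the Rnf43 promoter at chr11:87662837-87663136 on the plus strand and the Kremen2 promoter at chr17:23745780-23746079 on the minus strand.
Axin2 promoter: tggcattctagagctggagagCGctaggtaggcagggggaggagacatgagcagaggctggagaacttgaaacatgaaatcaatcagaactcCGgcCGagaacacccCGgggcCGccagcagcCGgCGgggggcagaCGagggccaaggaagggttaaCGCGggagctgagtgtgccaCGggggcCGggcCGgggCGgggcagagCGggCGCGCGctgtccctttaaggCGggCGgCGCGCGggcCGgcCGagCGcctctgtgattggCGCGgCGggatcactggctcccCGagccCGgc
Nkd2 promoter: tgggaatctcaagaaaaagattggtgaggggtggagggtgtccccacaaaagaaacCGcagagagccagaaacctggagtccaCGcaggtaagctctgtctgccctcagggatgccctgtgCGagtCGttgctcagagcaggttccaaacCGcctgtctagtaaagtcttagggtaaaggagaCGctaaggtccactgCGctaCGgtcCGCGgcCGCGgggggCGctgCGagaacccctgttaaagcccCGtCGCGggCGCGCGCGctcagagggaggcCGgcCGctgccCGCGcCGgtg
Rnf43 promoter: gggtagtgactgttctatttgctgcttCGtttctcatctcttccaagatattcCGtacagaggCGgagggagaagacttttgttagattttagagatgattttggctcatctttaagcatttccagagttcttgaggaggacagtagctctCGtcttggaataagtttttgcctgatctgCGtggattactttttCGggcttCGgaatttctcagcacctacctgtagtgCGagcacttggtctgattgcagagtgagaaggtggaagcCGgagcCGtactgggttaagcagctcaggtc
Kremen2 promoter: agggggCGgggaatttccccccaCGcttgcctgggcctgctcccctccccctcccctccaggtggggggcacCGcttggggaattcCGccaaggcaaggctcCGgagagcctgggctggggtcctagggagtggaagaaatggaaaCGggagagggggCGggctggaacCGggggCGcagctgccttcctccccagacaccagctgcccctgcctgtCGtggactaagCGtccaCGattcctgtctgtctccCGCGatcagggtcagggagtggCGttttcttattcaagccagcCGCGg

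The next 3 sequences, from the same genes, lie inside called Polycomb intervals and show how different such intervals were in composition. The Axin2 stretch, chr11:108921997-108922296 on the plus strand, is the central 300 bp of a Suz12 peak found in Myc-ESCs, with a GC content of 62.3%. The Rnf43 stretch, chr11:87663762-87663994 on the plus strand, joins a LIF-ESC Suz12 peak to the Myc-ESC H3K27me3 peak that overlapped it, and holds 1 CpG in 233 bp at a GC content of 31.8%. The Kremen2 stretch, chr17:23743892-23744015 on the minus strand, is a whole Myc-ESC H3K27me3 peak of 124 bp with 3 CpG.
Axin2 intron 1: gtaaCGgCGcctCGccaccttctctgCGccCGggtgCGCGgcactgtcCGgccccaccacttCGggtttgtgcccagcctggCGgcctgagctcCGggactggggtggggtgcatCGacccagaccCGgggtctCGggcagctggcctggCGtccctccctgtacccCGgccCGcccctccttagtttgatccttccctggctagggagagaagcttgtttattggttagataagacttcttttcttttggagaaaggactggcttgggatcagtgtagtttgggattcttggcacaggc
Rnf43 intron 1: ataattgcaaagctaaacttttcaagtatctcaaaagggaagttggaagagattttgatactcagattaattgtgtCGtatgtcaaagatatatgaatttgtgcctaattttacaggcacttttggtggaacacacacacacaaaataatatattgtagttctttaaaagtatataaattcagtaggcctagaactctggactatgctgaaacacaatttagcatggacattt
Kremen2 intron 3: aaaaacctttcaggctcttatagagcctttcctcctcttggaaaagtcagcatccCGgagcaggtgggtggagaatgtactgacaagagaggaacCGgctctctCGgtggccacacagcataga

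All 10 genes carried an H3K4me3 peak within 2500 bp of a start site in both cultures, beside 62.7% of all genes in LIF-ESCs against 63.9% in Myc-ESCs. None had the mark in a single culture, a state found for 2.36% of genes with Myc-ESCs marked alone and 1.2% with LIF-ESCs marked alone. The Polycomb lists divided the genes. Suz12 was called at 3 of the 10 in LIF-ESCs, namely Znrf3, Rnf43 and Nkd1, where 12.2% of all genes had a peak. In Myc-ESCs it was called at 5, namely Apcdd1, Notum, Nkd1, Nkd2 and Axin2, where 14.7% of all genes had one. Within this window, Nkd1 was thus the single inhibitor with Suz12 in both lists. H3K27me3 was called at Znrf3 and Nkd1 in LIF-ESCs (2 of 10, beside 3.84% of genes) and at Znrf3, Rnf43, Kremen2 and Nkd1 in Myc-ESCs (4 of 10, beside 10.8%). Kremen1 and Sostdc1 had neither near a start site.

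Counted by culture, Suz12 was found in Myc-ESCs only at Apcdd1, Notum, Nkd2 and Axin2, 4 of 10 genes beside 3.83% of all genes. It was found in LIF-ESCs only at Znrf3 and Rnf43, 2 of 10 beside 1.29%. H3K27me3 was found in Myc-ESCs only at Rnf43 and Kremen2, 2 of 10 beside 7.69%, and in LIF-ESCs only at none, beside 0.738%. These backgrounds include many genes with no H3K4me3. Among the 15852 genes with H3K4me3 in both cultures, the state every inhibitor was in, 5.78% had Suz12 in Myc-ESCs only, and 1.82% had it in LIF-ESCs only. For H3K27me3 these shares were 11.3% and 1.12%. The H3K27me3 counts rest on low-scoring peaks, since none of those at the inhibitor genes, 4 in LIF-ESCs against 8 in Myc-ESCs, reached a score of 100.

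In Myc-ESCs, Suz12 and H3K27me3 were both called within 2500 bp of a start site at Nkd1 alone. None of the 4 genes with Suz12 in Myc-ESCs only had H3K27me3 there, a combination found at 61.4% of the 917 genes of that kind. Of the 4 inhibitors with H3K27me3 in Myc-ESCs, Znrf3, Rnf43 and Kremen2 had no Suz12 peak within the window, beside 11.4% of 2469 genes. At Kremen2, however, a Suz12 and an H3K27me3 peak of Myc-ESCs overlapped farther into the gene body. Within the window, Nkd1 alone carried all 3 marks in both cultures.

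**Figure D1:**
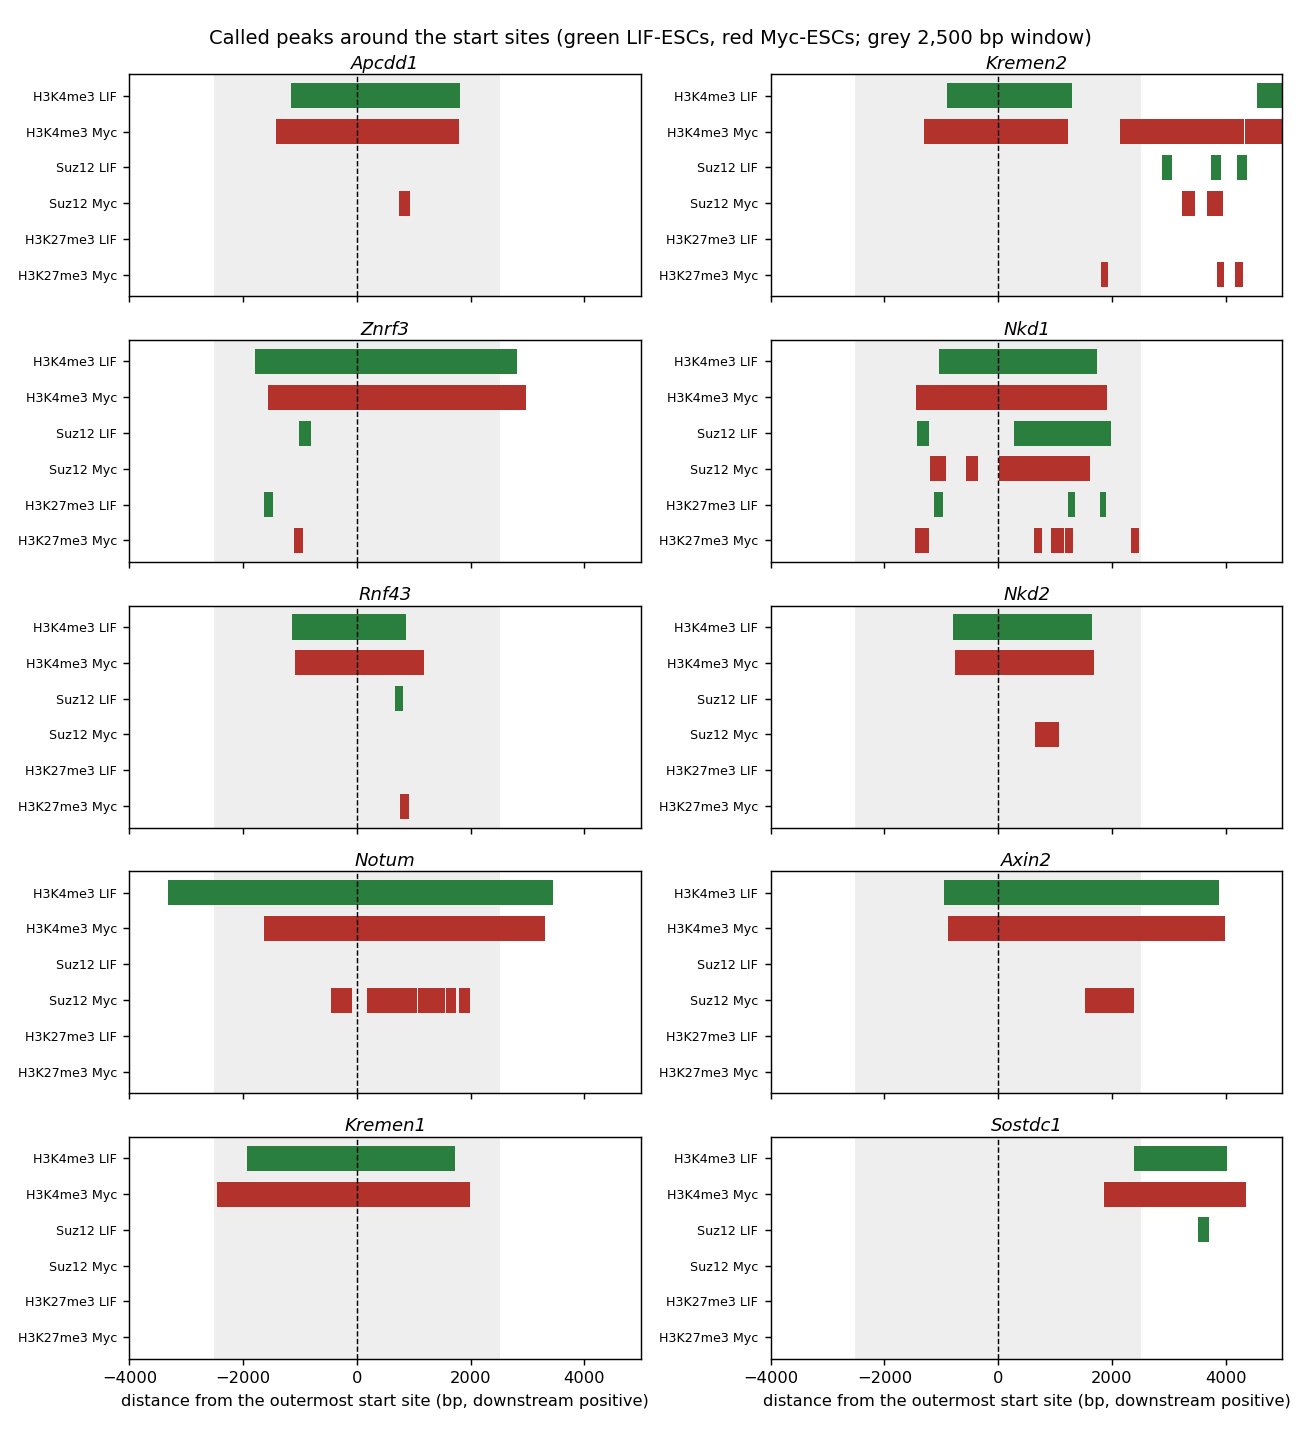
Called peaks of H3K4me3, Suz12 and H3K27me3 in LIF-ESCs (green) and Myc-ESCs (red) around the outermost start site of each of the 10 genes, in bp with downstream positive and the 2500 bp window in grey. Suz12 bars appear in the red row alone at Apcdd1, Notum, Nkd2 and Axin2, in the green row alone at Znrf3 and Rnf43 within the window, and in both rows there at Nkd1.

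Notum had the widest Suz12 coverage of the genes with Suz12 in Myc-ESCs only. The gene lies on the minus strand at chr11:120653788-120661193 (12 exons) and has annotated start sites at 120661193 and 120660837. In Myc-ESCs, 5 Suz12 peaks covered 2093 bp, or 39.1% of the window, and in LIF-ESCs none did, the nearest lying 422869 bp away. The broadest, 890 bp at chr11:120660130-120661019, lay over intron 1 and exon 2 and over the inner start site. Its score of 512 put it in the top 16.8% of the Myc-ESC Suz12 list, and it was the most GC-rich peak at these 4 genes, at 74.3%. A second peak of 465 bp followed it with a score of 192, and a 373 bp peak with a score of 126 lay upstream. The remaining pair scored 62.6 and 62.8, low in the list. No H3K27me3 peak was near, the closest lying 350944 bp off in LIF-ESCs against 128381 bp in Myc-ESCs.

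The H3K4me3 domain of Notum was also the one that differed most in extent. In LIF-ESCs it was 6772 bp long and covered 100% of the window, with a score of 3100, in the top 0.779% of its list. In Myc-ESCs it was 4932 bp long, covered 83.7% of the window and scored 2961, in the top 11.9%. The peak over the Supt4a start, downstream of Rnf43, also scored 3100 in both lists, so that score was tied. Tied peaks take the best rank, and 3100 stood in the top 0.705% of the Myc-ESC list. Ranks so close to a tied score do not measure how far the Notum domain differed. The shorter domain ended nearer the gene on the upstream side, and a further upstream LIF-ESC peak of 2445 bp (chr11:120665544-120667988, score 216) had no counterpart in Myc-ESCs. H3K4me3 thus covered fewer bases of the Notum window in the culture with Suz12, 4484 bp against 5357 bp. This depended on the window: Myc-ESCs minus LIF-ESCs, the difference was 0 bp at 1000 bp and -2490 bp at 5000 bp. At Axin2 the coverage of the 2500 bp window was 3389 bp in the culture with Suz12 and 3459 bp in the other. At Apcdd1 it was 3216 and 2969 bp, and at Nkd2 2451 and 2433 bp, a difference of 18 bp that changed sign at a window of 1000 bp.

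Apcdd1 lies on the plus strand at chr18:62922327-62953815 and has 5 exons. Its H3K4me3 peak measured 2969 bp in LIF-ESCs against 3216 bp in Myc-ESCs. A single Suz12 peak was called in Myc-ESCs, 196 bp long at chr18:62923071-62923266 in intron 1, 744 bp downstream of the start. Its score of 69.3 placed it in the top 66.0% of its list, so it was among the weaker peaks, and it was lost when peaks under a score of 100 were left out. The nearest LIF-ESC Suz12 peak lay 463518 bp away. No H3K27me3 peak was called nearer than 939349 bp in LIF-ESCs against 465686 bp in Myc-ESCs. The absence of a called peak does not show that the mark was absent. By ChIP assay of single promoters, the paper reported H3K27me3 and PRC2 binding at this gene, spelled Apccd1. The cells used there were MycER cells with Myc and Mycn knocked down. They were kept in LIF throughout, so their state with OHT was not that of the Myc-ESCs here. Both H3K27me3 and PRC2 binding fell after short OHT withdrawal and returned with OHT.

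Axin2 lies on the plus strand at chr11:108917828-108950783 (11 exons), with the curated transcript start at 108920349, downstream of the annotated 5′ end of the gene. H3K4me3 extended over 4843 bp in LIF-ESCs against 4882 bp in Myc-ESCs, with scores in the top 16.3% and 21.2% of the lists. In Myc-ESCs a pair of Suz12 peaks stood in intron 1, at chr11:108921877-108922416 (540 bp, score 175) and chr11:108922426-108922732 (307 bp, score 132), 847 bp in all. They began 1528 bp from the start, with a GC content of 61.1% and 56.4%, and the Axin2 intron 1 sequence printed above comes from the first of them. In LIF-ESCs the closest Suz12 peak was 519902 bp away. The nearest H3K27me3 peak was at least 575248 bp away in both cultures. Because the peaks lie so far into the gene, they fell outside a window of 1000 bp and outside one of 2500 bp centred on the annotated 5′ end.

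The Naked cuticle genes stood in different states. Nkd2 (chr13:73818534-73847631, minus strand, 10 exons) had almost equal H3K4me3 peaks of 2433 bp and 2451 bp in LIF- and Myc-ESCs. Suz12 appeared in the Myc-ESC list alone, as 1 peak of 418 bp at chr13:73846559-73846976 over exon 3 and intron 3, 655 bp from the start. It scored 237, in the top 25.6% of the list, and its GC content was 56.9%. The nearest LIF-ESC Suz12 peak was 162029 bp away. The nearest H3K27me3 peak lay 585860 bp off in LIF-ESCs against 576452 bp in Myc-ESCs.

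Nkd1 (chr8:88521342-88594887, plus strand, 10 exons) was bivalent in both lists at its first start site, 88521344, and bare at its second, 88527633. H3K4me3 measured 2783 bp in LIF-ESCs against 3362 bp in Myc-ESCs, and in both it also covered the start of Gm35162, a neighbouring transcript. Suz12 covered 1903 bp in 2 LIF-ESC peaks and 2088 bp in 4 Myc-ESC peaks. The main peak was among the strongest of each list. It ran from intron 1 to intron 3 in LIF-ESCs, and over exon 3 and the introns beside that exon in Myc-ESCs. In LIF-ESCs it spanned chr8:88521629-88523325 with a score of 833 (top 8.37%), and in Myc-ESCs chr8:88521684-88522951 with a score of 1065 (top 10.6%). The Myc-ESC peak lay wholly within the LIF-ESC one. H3K27me3 was more scattered, with 3 peaks and 361 bp in LIF-ESCs against 5 peaks and 890 bp in Myc-ESCs. A single pair of these overlapped between the cultures, by 85 bp, and their scores ran from 68.7 to 71.4 in LIF-ESCs against from 54.4 to 84.6 in Myc-ESCs. The excess of H3K27me3 bases in Myc-ESCs turned to a deficit of 361 bp when both lists were held to the same number of peaks, because no Myc-ESC peak of Nkd1 was then kept.

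The ubiquitin ligases Znrf3 and Rnf43 both had Suz12 in LIF-ESCs only, and in each case the peak was short and weak. At Znrf3 (chr11:5276329-5444847, minus strand, 9 exons) it was 213 bp long at chr11:5445654-5445866, 807 bp upstream of the start at 5444847. Its score of 65.8 placed it in the top 71.2% of the list, and its GC content of 39.0% was above that of 7.72% of the LIF-ESC Suz12 peaks. H3K27me3 was called on the same upstream flank in both cultures, but at different places. The LIF-ESC peak was 155 bp long at chr11:5446331-5446485 with a score of 87.6. The Myc-ESC peak was 152 bp at chr11:5445805-5445956 with a score of 62.9, and it overlapped the LIF-ESC Suz12 peak by 62 bp rather than the LIF-ESC H3K27me3 peak. H3K4me3 was broad, 4609 bp in LIF-ESCs against 4532 bp in Myc-ESCs, and ranked in the top 16.8% and 17.8%. In Myc-ESCs the nearest Suz12 peak was 293121 bp away.

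At Rnf43 (chr11:87663087-87735539, plus strand, 10 exons) the LIF-ESC Suz12 peak was 131 bp long at chr11:87663762-87663892 in intron 1, 675 bp from the start. It scored 88.8, in the top 50.9% of its list. The Myc-ESC H3K27me3 peak, 152 bp at chr11:87663843-87663994 with a score of 62.9, overlapped it by 50 bp, and the Rnf43 intron 1 sequence above is the union of both. This stretch was AT-rich: the Suz12 peak had a GC content of 32.1%, above that of 1.36% of its list, and the H3K27me3 peak held 0 CpG and was 38.2% repeat-masked. H3K4me3 measured 2003 bp in LIF-ESCs against 2273 bp in Myc-ESCs. The inner start sites of both ligases, 5381740 for Znrf3 and 87699897 for Rnf43, had no peak of any list. At a minimum score of 100 neither ligase kept a Polycomb peak.

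The Dkk receptors Kremen1 and Kremen2 also differed from each other. Kremen1 (chr11:5191551-5261713, minus strand, 9 exons) had H3K4me3 of 3659 bp in LIF-ESCs against 4457 bp in Myc-ESCs, in the top 25.1% and 25.8% of the lists, and no Polycomb peak. Its nearest Suz12 peak was 184044 bp away in LIF-ESCs against 109884 bp in Myc-ESCs. Its nearest H3K27me3 peaks were 184721 and 184195 bp away. The gene is the neighbour of Znrf3, with 14615 bp between them and 183237 bp between their start sites, so the closest LIF-ESC marks were those of Znrf3.

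Kremen2 is short (chr17:23741199-23745960, minus strand, 4762 bp, 10 exons), and most of its Polycomb peaks lay in its 3′ part. At the start, H3K4me3 measured 2205 bp in LIF-ESCs against 2536 bp in Myc-ESCs, with scores of 255 and 494. A second Myc-ESC H3K4me3 peak of 2169 bp (chr17:23741512-23743680, score 79.8) ran from intron 4 to exon 10. Within the window the sole Polycomb peak was the Myc-ESC H3K27me3 peak in intron 3 printed above, 1814 bp from the start with a score of 59.4. Over the rest of the body, Suz12 was called in both cultures, as 3 peaks and 502 bp in LIF-ESCs against 2 peaks and 500 bp in Myc-ESCs, with scores from 59.1 to 82.6. A further pair of Myc-ESC H3K27me3 peaks there scored 68.0 and 57.1. Past the end of Kremen2, Myc-ESC Suz12 peaks with scores of 247 and 106 lay at Paqr4, and an H3K4me3 peak over exon 10 covered a start site of that gene. Peaks in the 3′ part cannot be assigned to Kremen2 rather than Paqr4 from position alone.

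Sostdc1 (chr12:36314169-36318452, plus strand, 2 exons) had H3K4me3 away from its start. The peak began 2384 bp downstream in LIF-ESCs against 1858 bp downstream in Myc-ESCs, over intron 1 and exon 2, and measured 1640 and 2500 bp. Only 117 bp and 643 bp of the peaks fell within the window, so counting this gene as marked at its start depends on the window's width. A weak LIF-ESC Suz12 peak of 188 bp (score 53.8) lay in exon 2, 3513 bp from the start, and in Myc-ESCs none was called within 793722 bp. The nearest H3K27me3 peak was 793529 bp away in LIF-ESCs against 506076 bp in Myc-ESCs.

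**Figure D2:**
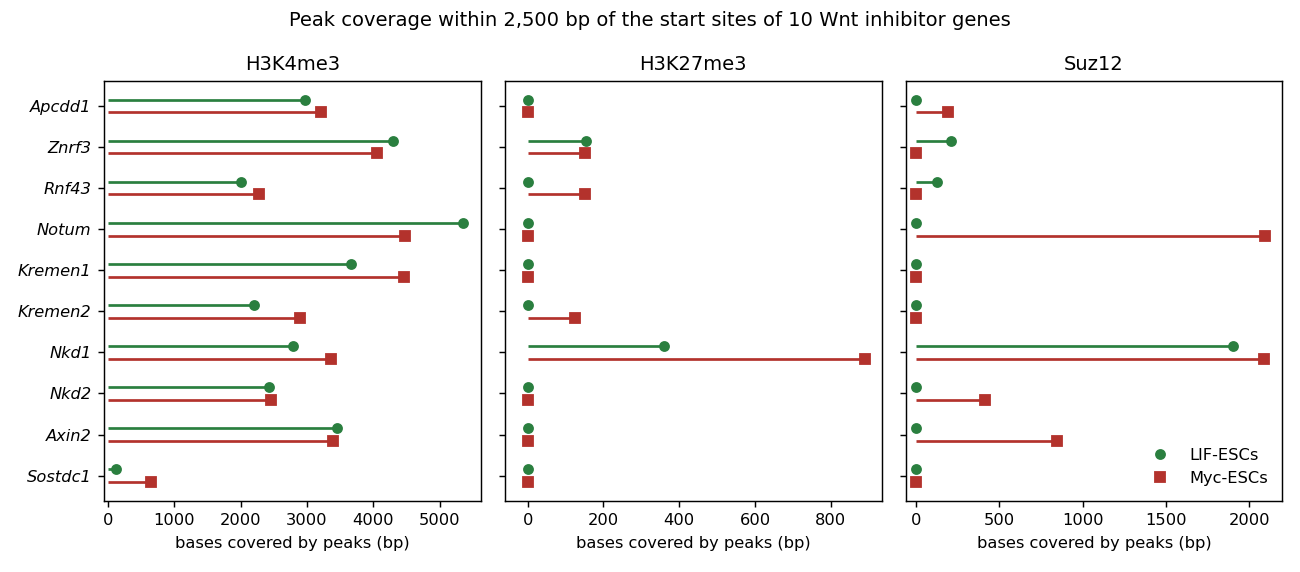
Bases within 2500 bp of the start sites covered by peaks of each mark, in bp, for the 10 genes in LIF-ESCs (green circles) and Myc-ESCs (red squares), each from 1 list and so without error bars. Suz12 covered 2093 bp at Notum in Myc-ESCs and 0 bp in LIF-ESCs, while Nkd1 had 1903 bp in LIF-ESCs against 2088 bp in Myc-ESCs.

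Over whole gene bodies, H3K4me3 was present at all 10 genes in both cultures, beside 65.4% of genes in LIF-ESCs against 66.5% in Myc-ESCs. H3K27me3 was present in the body of Nkd1 in LIF-ESCs (1 of 10, beside 4.07%) and of Rnf43, Kremen2 and Nkd1 in Myc-ESCs (3 of 10, beside 11.2%). Suz12 was present in the bodies of Rnf43, Kremen2, Nkd1 and Sostdc1 in LIF-ESCs (4 of 10, beside 12.5%). In Myc-ESCs it was present in those of Apcdd1, Notum, Kremen2, Nkd1, Nkd2 and Axin2 (6 of 10, beside 15.3%). The Polycomb peaks of Znrf3 were absent from this count because they lay upstream of the gene.

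The H3K4me3 domains were slightly longer in Myc-ESCs at most genes, but so were those of the genome. The longest start-site peak was longer in Myc-ESCs at 8 of the 10 inhibitors, all but Znrf3 and Notum, beside 61.8% of the 15852 genes with H3K4me3 in both cultures. The median length of the 10 was 2876 bp in LIF-ESCs against 3289 bp in Myc-ESCs, with a median ratio of 1.11. Over the 15852 genes the medians were 3406 and 3606 bp and the ratio 1.04.

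The position and base composition of the Polycomb peaks, which the choice of genes did not use, varied between genes. In Myc-ESCs all 13 Suz12 peaks at the inhibitor start sites lay inside an H3K4me3 peak of the same culture, beside 76.8% of Suz12 peaks at any start site. In LIF-ESCs 2 of 4 did, beside 66.5%. For H3K27me3 it was 2 of 4 peaks in LIF-ESCs, beside 36.8%, and 5 of 8 in Myc-ESCs, beside 49.6%. The 13 Myc-ESC Suz12 peaks lay at 5 genes, so they were not independent observations. All the inhibitor genes carried H3K4me3, whereas these backgrounds were not restricted to genes with it. The 9 Suz12 peaks at Apcdd1, Notum, Nkd2 and Axin2 had a GC content from 51.4 to 74.3%, and the 4 at Nkd1 in Myc-ESCs from 45 to 76.3%, beside a median of 54.5% for Myc-ESC Suz12 peaks at start sites. The LIF-ESC Suz12 peaks of Znrf3 and Rnf43, at 39.0 and 32.1%, were under the corresponding LIF-ESC median of 54.6%. The H3K27me3 peaks at the inhibitor genes spanned 32.2 to 59.8%, a range that overlapped that of Suz12, beside start-site medians of 45.7 and 45.8%. The low H3K27me3 scores were common to the lists, in which 89.1% of LIF-ESC and 79.8% of Myc-ESC peaks scored under 100.

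**Figure D3:**
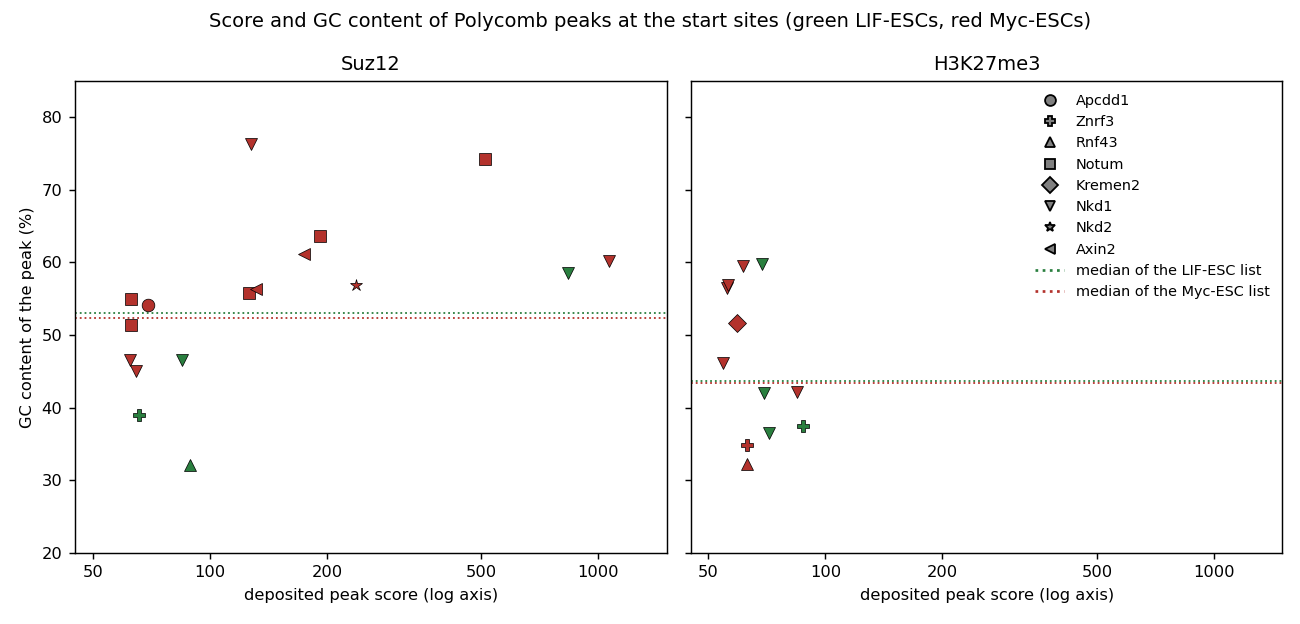
GC content in percent against the deposited score (log axis) of each Suz12 peak and each H3K27me3 peak at the start sites, with symbols for genes, green for LIF-ESCs, red for Myc-ESCs and dotted lines for the medians of the whole lists. The Suz12 peaks of Znrf3 and Rnf43 sit at 39.0% and 32.1% GC, below those of Notum, Nkd2 and Axin2, and every H3K27me3 peak lies under a score of 100.

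The sequence around the start sites ran from CpG-rich to CpG-poor in the same set of genes. Over 1000 bp on either side, the ratio of observed to expected CpG was 0.919 at Znrf3, higher than at 98.3% of genes, 0.831 at Axin2 and 0.828 at Kremen1. It was 0.734 at Nkd1, 0.727 at Notum, 0.665 at Apcdd1 and 0.613 at Nkd2. It was near the median of all genes, 0.445, at Rnf43 (0.444) and Kremen2 (0.416), and lowest at Sostdc1 (0.241). The 5 genes with Suz12 in Myc-ESCs thus all lay above the median of all genes, as did Kremen1 and Znrf3, which had none there.

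A Myc-type E-box, CACGTG, which reads the same on both strands, was present within this 2001 bp at 1 of 10 genes, Znrf3, with 3 matches, beside 28.0% of all genes. A Tcf-type motif, CTTTG followed by any pair of A or T and searched on both strands, was present at 9 of 10 genes, all but Apcdd1, beside 74.5%. None of the printed sequences held either. In RefSeq promoters of 300 bases, CACGTG was found in 7.15% and the Tcf-type motif in 16.9%. These are letter matches and not bound sites.

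Other parts of the pathway showed other combinations. The list of 12 secreted antagonists held Dkk and Sfrp genes, Frzb, Wif1, Cer1 and Sost. Suz12 was called at 7 of the 12 in both cultures, with 0 in a single culture. H3K27me3 was called at 2 in LIF-ESCs against 5 in Myc-ESCs, with Sfrp1, Sfrp5 and Frzb in Myc-ESCs only, at scores up to 75.9, 102 and 296. Of 10 genes of beta-catenin destruction and cytoplasmic relay, such as Gsk3b and the Dishevelled genes, 0 had Suz12, and Apc2 alone had H3K27me3, in Myc-ESCs (score 57.1). Axin2 and both Naked cuticle genes therefore carried Suz12 in Myc-ESCs where none of these partners did.

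Of 19 receptors and R-spondin partners, Suz12 was called at 12 in LIF-ESCs against 14 in Myc-ESCs. Fzd5, Fzd10 and Lgr6 had it in Myc-ESCs only, with scores up to 103, 864 and 97.4, and Fzd7 in LIF-ESCs only, up to 111. H3K27me3 was called at 2 in LIF-ESCs against 9 in Myc-ESCs, and Fzd3, Fzd4, Fzd6, Fzd10, Lgr5, Rspo1 and Rspo2 had it in Myc-ESCs only. Fzd10, a Frizzled receptor, had both marks in Myc-ESCs only, a state that none of the 10 inhibitors was in. In the study's Wnt pathway list without the inhibitors (340 genes), 9.12% had Suz12 in Myc-ESCs only, and 2.65% had it in LIF-ESCs only. For H3K27me3 the shares in that list were 21.2% and 1.18%.

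**Figure D4:**
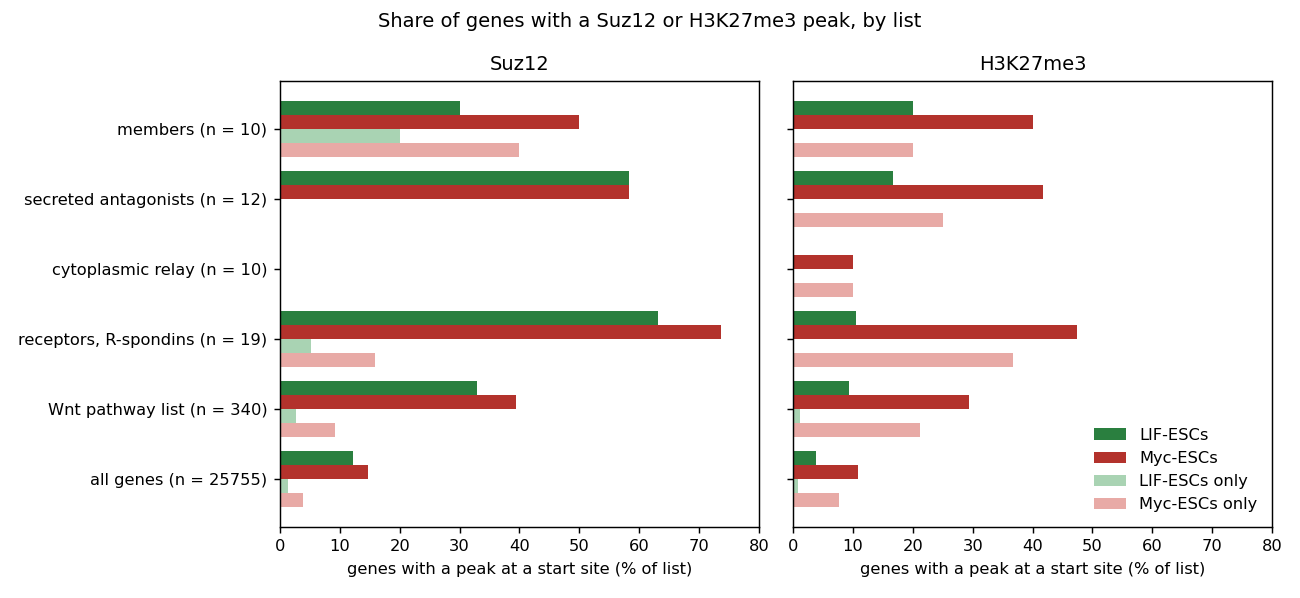
Share of genes, in percent of each list, with a Suz12 or H3K27me3 peak at a start site in LIF-ESCs, in Myc-ESCs, and in 1 culture only, for the 10 inhibitors, 3 short pathway lists, the Wnt pathway list without the inhibitors and all 25755 genes. For Suz12 in Myc-ESCs only, the bars read 40% for the inhibitors, 0% for secreted antagonists and cytoplasmic relay, 15.8% for receptors and R-spondins, 9.12% for the Wnt pathway list and 3.83% for all genes.

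The state of Apcdd1, Notum, Nkd2 and Axin2 in all 6 lists was shared with 16 other genes of the Wnt pathway list and by 543 genes in all. The genes nearest to Axin2 in covered bases, as the summed difference over the 6 lists, were Sdc1 at 577 bp and Pygo1, a beta-catenin co-activator, at 611 bp. For Nkd2 they were Tle2, a co-repressor of Tcf factors, at 597 bp and the planar polarity gene Vangl1 at 1585 bp, and for Apcdd1 Vangl1 at 644 bp and Prkaa2 at 873 bp. For Notum the nearest genes, Egr1 and Fzd5, were farther off, at 2452 and 2647 bp. The bivalent Nkd1 was closest to Disc1, at 1067 bp, and to the BMP antagonist Nog, at 1402 bp. Kremen2 was farther still from its nearest genes, Grk5 and Bambi, at 2667 and 2800 bp. Znrf3 and Rnf43 shared their states with 0 other genes of the list and stood among 8 and 43 genes of the annotation.

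The start sites of the pluripotency genes Pou5f1, Sox2 and Nanog, markers of ESCs, carried H3K4me3 and neither Polycomb mark in both cultures, which does not check which culture is which. The lists differed in size, which bears on every count above: Myc-ESCs had 16717 H3K27me3 peaks to 3120 in LIF-ESCs, and 13907 Suz12 peaks to 11305. With the Suz12 lists held to 11305 peaks each, Apcdd1, Notum, Nkd2 and Axin2 still had Suz12 in Myc-ESCs only. With the H3K27me3 lists held to 3120 peaks each, the Myc-ESC list marked 0 of the 10 genes and the LIF-ESC list 2. The part of read depth in these differences was not tested.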

How the data were processed

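The authors aligned reads to GRCm38 with Bowtie2 2.2.3 and called peaks with MACS 1.4.2 at default settings, per the study's methods and the submitters' processing notes. They deposited 6 BED lists, each with peak positions and a score, the peak caller's significance on a log scale, which starts at 50 and was used only within a list. Whether libraries were pooled is not stated, and the 4 inputs have no list. Scores depend on read depth, which is unknown.

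Genes counted as marked had a peak overlapping, by at least 1 bp, the 2500 bp around a start site of any curated RefSeq transcript (45302 transcripts, GRCm38.p6). Overlaps were computed in Python 3.11.15 (pandas 2.3.3, numpy 2.4.6, pysam 0.24.0, matplotlib 3.10.9) with code tested on simulated data. Promoter sequences and annotation are from RefSeq. A "top" percentage is a peak's rank by score in its list, with tied peaks all given the best rank. The 10 genes, the pathway lists (349 of 351 Wnt names matched, 9 of the 10 genes among them, a list the study selected) and the alternatives were chosen with earlier results of these data known. Named were all 10 genes, genes of the short lists with a Polycomb mark in a single culture, the nearest 2 Wnt-list genes in the same state as each gene with a Polycomb peak, and genes whose start a peak also covers. Others were named as background or ESC markers. Per-gene base differences were tabulated after the data were seen. The authors' differential peak analysis was not used.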

Additional observations from a re-analysis of the deposited data

How the results depend on the processing

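The settings varied were a minimum score of 100, lists cut to equal numbers of peaks, windows of 1000 and 5000 bp, the 5′ end of the gene annotation, peak midpoints, and leaving out peaks over another gene's start. Of the counts of marked genes, 82 stayed within 1.5 times the reported count and 14 did not, and no H3K4me3 count moved that far. With a score of at least 100, H3K27me3 was left at 0 genes in LIF-ESCs, 0 in Myc-ESCs and 0 in Myc-ESCs only, and in the bodies of 0 and 0. Suz12 was then left at 1 start site (Nkd1) and 1 body in LIF-ESCs and at 0 in LIF-ESCs only, while Notum, Nkd2 and Axin2 kept it in Myc-ESCs only and Apcdd1 lost it. With equal lists, where the lowest Myc-ESC H3K27me3 score kept was 103.8, H3K27me3 was at 0 genes in Myc-ESCs, 0 in Myc-ESCs only, 2 in LIF-ESCs only (Znrf3 and Nkd1) and 0 bodies in Myc-ESCs. A window of 1000 bp left H3K27me3 at 1 gene in LIF-ESCs, Nkd1. In Myc-ESCs only, it left H3K27me3 at 2 genes but exchanged Kremen2 for Znrf3. It put Suz12 in Myc-ESCs only at 3, without Axin2, as did the gene's 5′ end. A window of 5000 bp gave Suz12 at 5 genes in LIF-ESCs, with Kremen2 and Sostdc1 added.

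Differences in covered bases, Myc-ESCs minus LIF-ESCs, changed sign in 5 cases: Znrf3 H3K27me3 from -3 to 43 bp and Nkd2 H3K4me3 from 18 to -26 bp at 1000 bp, Axin2 H3K4me3 from -70 to 39 bp at 5000 bp, Nkd1 H3K27me3 from 529 to -361 bp with equal lists, and Nkd1 Suz12 from 185 to -104 bp at a score of at least 100. No paired analysis was possible because each culture and antibody has a single list, and for the same reason no replicate could be left out.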
